A study of Mus musculus with 2 samples.

Results

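The small chromatin intervals described here are the stretches between neighbouring domain boundaries whose midpoints lie 110 kb or less apart on the same autosome. There were 237 of them among 7150 autosomal intervals between neighbouring boundaries (3.31%), and together they covered 22.8 Mb, or 0.958% of the sequenced bases in such intervals. They were selected on the positions of the boundaries themselves, so their lengths describe the selection and carry no test. Their genes, sequence and boundary scores are set below beside those of the 6913 longer autosomal intervals and, for several of them, of the 837 next longer ones of 115 to 150 kb.

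The boundaries came from in situ Hi-C on olfactory sensory neurons of adult 129P2/OlaHsd mice of mixed sex. The neurons were mature cells that use the olfactory receptor (OR) gene Olfr17 (P2), sorted by fluorescence from the olfactory epithelium of P2-GFP reporter mice, in which GFP marks those cells. The 2 biological replicates held 23000 and 20000 cells, received no treatment, and were fixed with 1% formaldehyde and cut with DpnII. Their contacts were combined into 1 map with 1 boundary list, so there is no second group and no measure of the spread between replicates. No RNA was measured, so the identity of the sorted cells could not be checked against marker genes, and nothing below says whether a gene is active in these neurons.

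Hi-C joins DNA ends that are close together in the nucleus. A boundary marks a place that few contacts cross, and the chromatin between neighbouring boundaries contacts itself more than its surroundings. In mammals many boundaries form where cohesin, a ring complex that extrudes loops of chromatin, is stopped by the zinc finger protein CTCF bound to its motif, and matched motifs often point towards each other across a loop. Active promoters and housekeeping genes are also common at boundaries. In olfactory neurons each cell expresses a single OR gene from a family that lies mostly in large tandem clusters, and those clusters are packed as heterochromatin and contact each other between chromosomes.

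The sequences at the flanks of 5 intervals, picked by hand, show examples of matches to the core consensus of CTCF in this genome. At each flank the nearest match pointing into the interval was preferred, outside untranslated or noncoding exons. Their directions are therefore no sample of all matches. Each line gives 52 bases of the GRCm38 reference (C57BL/6J strain), read 5′ to 3′ on the strand that carries the match, with the 12 matching bases in capitals. The first 3 lines lie in masked repeats and the last 3 outside them, a division on which the comparison of motifs below turns.
Park7 left flank, intron of Park7, chr4:150906410-150906461, plus strand: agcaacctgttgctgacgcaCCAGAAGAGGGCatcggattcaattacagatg
Park7 right flank, intron of Camta1, chr4:150970328-150970379, minus strand: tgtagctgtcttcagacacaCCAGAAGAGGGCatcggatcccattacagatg
Cngb1 left flank, intergenic, chr8:95234248-95234299, plus strand: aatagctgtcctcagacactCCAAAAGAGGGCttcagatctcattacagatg
Trpm8 right flank, intron of Trpm8, chr1:88301789-88301840, minus strand: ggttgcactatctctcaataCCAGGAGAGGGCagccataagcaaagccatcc
Rtp2 right flank, intron of Bcl6, chr16:23984343-23984394, plus strand: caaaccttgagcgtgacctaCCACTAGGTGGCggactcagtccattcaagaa
Stmn2 right flank, intergenic, chr3:8594869-8594920, plus strand: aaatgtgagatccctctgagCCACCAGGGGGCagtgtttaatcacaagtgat

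Lengths ran from 35 to 110 kb with a median of 100 kb, in steps of 5 kb because boundaries were placed in bins of that size. Only 40 intervals were 80 kb or shorter, 89 were 85 to 100 kb and 108 were 105 or 110 kb, so the set is weighted towards its upper limit. At the limit itself, 70 intervals of exactly 110 kb held 21.2 protein-coding transcription start sites (TSSs) per Mb, and the 64 just outside it, of 115 kb, held 24.5 per Mb. Those values show no step at the limit, which is a cut through a continuous range of lengths. Most small intervals stood alone: 217 of 226 runs consisted of a single one, 7 runs held 2 and another 2 runs held 3. Their direct neighbours had a median length of 220 kb, against 260 kb for all autosomal intervals.

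**Figure D1:**
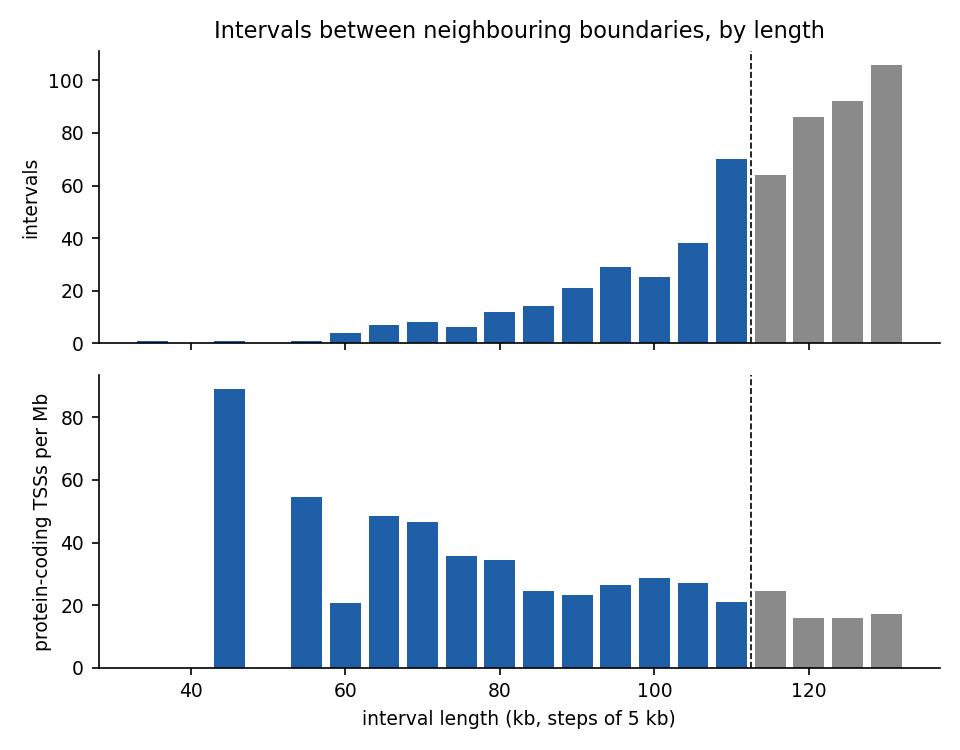
The upper bars give the number of autosomal intervals at each length from 35 to 130 kb, and the lower bars the protein-coding TSSs per Mb in them; blue bars are the 237 intervals of at most 110 kb, and the dashed line marks the limit. Intervals become more numerous towards 110 kb, and density falls from 38.9 per Mb over lengths of 35 to 80 kb to 23.2 per Mb at 105 and 110 kb, with single intervals behind the bars at 35, 45 and 55 kb.

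Small intervals were dense in genes. They held the TSSs of 598 of 20807 autosomal protein-coding genes (2.87%) on 0.958% of the sequence. That is 26.2 TSSs per Mb (95% Poisson interval 24.1 to 28.4, which treats TSSs as independent), against 8.49 per Mb in all longer intervals, a ratio of 3.09. Density fell with each step in length, to 17.3 per Mb at 115 to 150 kb, 11.7 at 155 to 400 kb and 4.41 at 405 kb and longer. Within the small intervals it fell too, from 38.9 per Mb at 35 to 80 kb to 26.2 at 85 to 100 kb and 23.2 at 105 and 110 kb. The small intervals thus lie at the end of a gradient that runs through the whole list.

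The difference appeared on each chromosome. TSS density was higher in small than in longer intervals on 19 of 19 autosomes, with a mean of 25.3 ± 7.38 per Mb (SD, n = 19 autosomes) against 8.58 ± 2.57. The lowest density in small intervals, 13.9 per Mb on chromosome 3, was just under the highest in longer ones, 14.0 per Mb on chromosome 7. The other 18 autosomes had a density in small intervals above every autosome's density in longer ones. No test was made of this difference, because there is 1 map and genes in the same interval are not independent of each other.

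**Figure D2:**
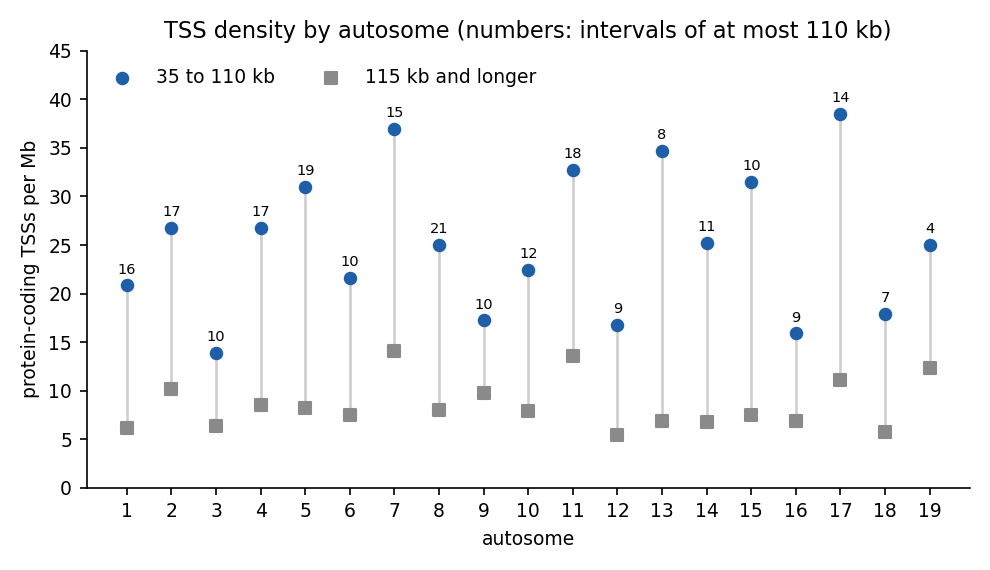
Protein-coding TSSs per Mb on each autosome in intervals of at most 110 kb (blue circles) and in longer intervals (grey squares), with the number of small intervals printed above each circle. The blue circle lies above the grey square on all 19 autosomes, and chromosome 17 has the highest value, 38.5 per Mb over 14 small intervals.

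Chromosome 8 held the most small intervals, 21, which were 5.59% of its intervals. Chromosome 17 followed with 4.95% (14 intervals), chromosome 11 with 4.24% (18) and chromosome 5 with 4.11% (19). The lowest shares were 2.16% on chromosome 19 (4 intervals), 2.22% on chromosome 3 (10) and 2.29% on chromosome 6 (10). The mean share was 3.30% ± 0.929 (SD, n = 19 autosomes). Over the 19 autosomes, as a description only, gene density and small intervals per 100 Mb had a Pearson correlation of 0.437 and a Spearman rank correlation of 0.547. Single chromosomes departed from this: chromosome 19 carried 12.4 protein-coding genes per Mb but only 6.91 small intervals per 100 Mb, while chromosome 8 carried 8.29 genes per Mb and 16.8 small intervals per 100 Mb.

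Genes were not spread evenly over the small intervals. The median was 2 protein-coding TSSs per interval, the same as in longer intervals, although those had a median length of 265 kb. There were 59 small intervals with 1 TSS and 50 with 2, while 100 had 3 or more (42.2%, exact 95% binomial interval 35.8 to 48.8%). At the upper end, 22 intervals with 6 or more TSSs held 164 of the 598. No protein-coding TSS lay in 28 small intervals (11.8%, 8.0 to 16.6%), against 23.3% of longer intervals (22.3 to 24.3%) and 22.6% of those of 115 to 150 kb (19.8 to 25.6%). Counting genes of every annotated type, the small intervals held 1000 TSSs (43.8 per Mb against 21.1 in longer ones), and 14 of them held none (5.91%, 3.27 to 9.71%, against 3.70% of all longer intervals but 10.2% of those of 115 to 150 kb, 8.19 to 12.4%).

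TSSs inside small intervals were concentrated towards the flanks. Density was 36.1 per Mb within 10 kb of the nearer flanking boundary, 26.6 per Mb at 10 to 20 kb, 23.2 at 20 to 30 kb, 23.7 at 30 to 40 kb and 20.6 at 40 to 55 kb. Longer intervals showed the same fall at a lower level, from 16.4 per Mb within 10 kb to 11.6 per Mb at 10 to 20 kb and 10.9 at 40 to 55 kb. At matched distances the ratio of small to longer intervals ran from 1.89 to 2.29. It was 2.20 within 10 kb of a flank and 1.89 at 40 to 55 kb. Each of these ratios is below the 3.09 found over all bases. Without the TSSs and bases within 10 kb of a flank, small intervals held 23.6 TSSs per Mb against 8.0 in longer ones. Longer intervals there include bases more than 55 kb from a flank, so these densities are not matched for distance. Of the 598 genes, 171 (28.6%) had their TSS within 10 kb of a flank, against 11.3% of genes in longer intervals, where the flanks take up less of the length.

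**Figure D3:**
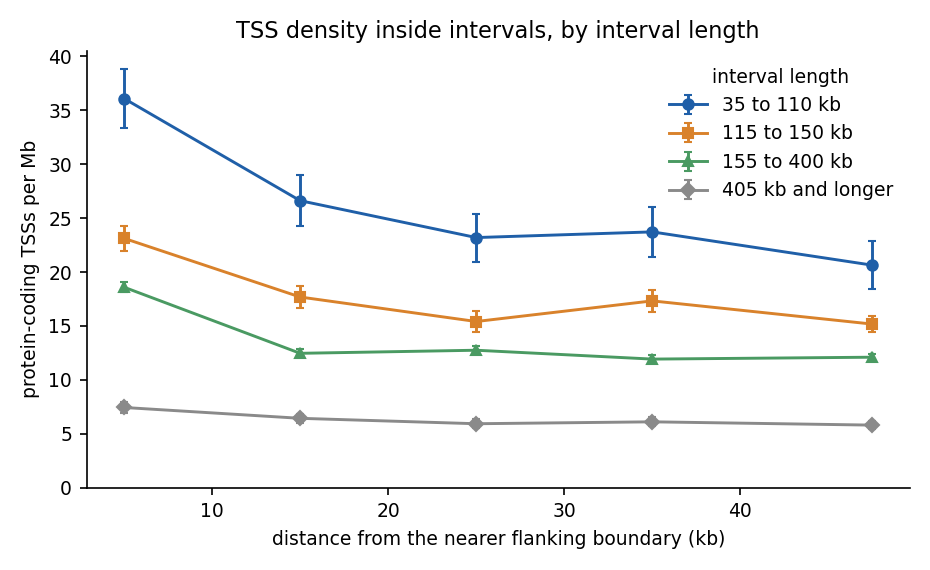
Protein-coding TSSs per Mb by distance from the nearer flanking boundary in 4 classes of interval length; points are placed at the middle of each distance range and bars are the square root of the TSS count divided by the length searched. All classes are highest within 10 kb of a boundary, and intervals of at most 110 kb lie above the other classes at every distance, from 36.1 per Mb down to 20.6 per Mb.

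The chromatin around small intervals was also rich in genes. The 444 longer intervals that lie next to a small one, of median length 230 kb, held 14.3 protein-coding TSSs per Mb. The 6469 other longer intervals, of median length 270 kb, held 8.17, so these densities are not matched for length. Base composition followed the same order, with a median GC content of 46.0% in small intervals, 45.5% in the longer ones beside them and 42.5% elsewhere; it was 44.6% at 115 to 150 kb. CpG sites had a median of 12.7 per kb in small, 11 per kb in 115 to 150 kb and 9.19 per kb in all longer intervals, and masked repeats took medians of 27.9%, 29.4% and 30.4% of the bases. Reads of 100 bases taken from the reference aligned uniquely for a median of 95.5% of positions in small and 92.6% in longer intervals. Only 6 small intervals (2.53%) were under 80%, against 6.74% of longer ones. None lay within 50 kb of an assembly gap, against 100 of the 6913 longer ones. Longer intervals span more bases each, so these counts are not matched for length.

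The genes themselves were slightly shorter. The median gene length was 15.4 kb in small and 17.8 kb in longer intervals, and 474 of the 598 genes (79.3%) fitted wholly between the 2 flanking midpoints, against 87.0% in longer intervals. The other 124 ran across a boundary. Of the 28 intervals without a protein-coding TSS, 9 were overlapped by the body of a gene that starts elsewhere and 19 by none. Genes covered 6 small intervals from end to end. Gm20388, a gene model of 4435 kb on chromosome 8 that spans many other genes, accounted for 4 of those. The others were covered by Fgf12 (593 kb), which encodes an intracellular fibroblast growth factor that binds sodium channels, and by Arhgap26 (434 kb), which encodes a GTPase-activating protein.

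Genes in head-to-head pairs made up a somewhat larger share than elsewhere. A head-to-head pair means genes on opposite strands that point away from each other with TSSs at most 1000 bases apart. Such pairs occurred 30 times in 29 small intervals. In all, 60 of the 598 genes (10.0%) belonged to one, against 6.95% of genes in longer intervals. Neither this difference nor the part of TSS density in it was tested. The bases between the annotated TSSs of 5 such pairs are given below, without any measure of promoter activity. They were chosen for their intervals after the values were seen, and are written 5′ to 3′ on the plus strand. Capitals mark GC boxes (GGGCGG or CCGCCC, bound by Sp1 family factors), CCAAT boxes (CCAAT or ATTGG, bound by NF-Y) and ETS cores (CCGGAAG or CTTCCGG), none of which contains another.
Park7 and Tnfrsf9, chr4:150914438-150914561: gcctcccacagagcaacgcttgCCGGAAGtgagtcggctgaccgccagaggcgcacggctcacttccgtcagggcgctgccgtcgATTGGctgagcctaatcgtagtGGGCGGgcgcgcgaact
Recql4 and Lrrc14, chr15:76710549-76710622: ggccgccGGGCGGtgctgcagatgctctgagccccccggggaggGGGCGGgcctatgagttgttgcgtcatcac
Mrps18b and Ppp1r10, chr17:35916390-35916433: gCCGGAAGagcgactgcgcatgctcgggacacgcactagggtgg
Hjurp and Trpm8, chr1:88277634-88277660: ggggagggacgagagggagggtccgcc
Npc2 and Isca2, chr12:84773153-84773250: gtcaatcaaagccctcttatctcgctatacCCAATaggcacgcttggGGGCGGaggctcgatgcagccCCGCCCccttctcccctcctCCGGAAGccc

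These stretches ran from 27 to 124 bases. Between Park7 and Tnfrsf9 there were 15 CpG sites in 124 bases and a GC content of 66.9%, with 1 match to each of the 3 motifs. The stretch between Hjurp and Trpm8 was 77.8% GC with 2 CpG sites and held none of these letters, which says nothing about the factors that bind there. Over all protein-coding promoters, taken as the 250 bases before the TSS and searched on both strands, a GC box was present in 49.3% in small intervals (295 of 598), 39.5% in longer ones and 39.8% in all. An ETS core was present in 13.2%, 8.10% and 8.25%, a CCAAT box in 33.4%, 35.8% and 35.7%, and a TATA box (TATAAA or TTTATA) in 8.53%, 11.7% and 11.6%. Promoters in small intervals had a median GC content of 58.0% and 13 CpG sites, against 54.0% and 8 in longer ones. GC boxes and ETS cores thus occurred more often beside a higher GC content, and the part of base composition in this was not tested.

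The flanking boundaries of small intervals were mostly unequal in strength. The authors' boundary score has no stated unit, and their classes split it near 0.5 into Weak and Strong. Of the 237 small intervals, 169 (71.3%, exact 95% binomial interval 65.1 to 77.0%) lay between a Strong and a Weak boundary, against 48.8% of longer intervals. Only 17 (7.17%, 4.23 to 11.2%) had a Strong boundary on both sides, against 30.6% of longer and 18% of 115 to 150 kb intervals. The 51 with no Strong boundary (21.5%) had nearly the same share as among longer intervals (20.6%). None of the 40 intervals of 80 kb or less lay between 2 Strong boundaries. Scores come from the same map as the positions that chose the intervals, so these values are a description.

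The weaker flank scored lower than in longer intervals, while the stronger one differed little from that of 115 to 150 kb intervals. The lower of the 2 scores had a median of 0.268 in small, 0.313 in 115 to 150 kb and 0.359 in all longer intervals, and was lower in small intervals on 18 of 19 autosomes. The higher score had medians of 0.789, 0.796 and 0.930 in the same order. The higher score was a median of 2.59 times the lower one in small intervals and 2.01 times in longer ones. The mean of both scores had a median of 0.550 in small, 0.591 in 115 to 150 kb and 0.685 in all longer intervals, lower than in the last in small ones on 16 of 19 autosomes. In all, 463 different boundaries flanked the small intervals. Their scores ran from 0.2, at the lower end of the whole list, to 4.38, with a median of 0.398 and 43.2% Strong, against 0.572 and 55.4% for the other 6706 autosomal boundaries. The stronger boundary was on the left in 128 intervals and on the right in 109.

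**Figure D4:**
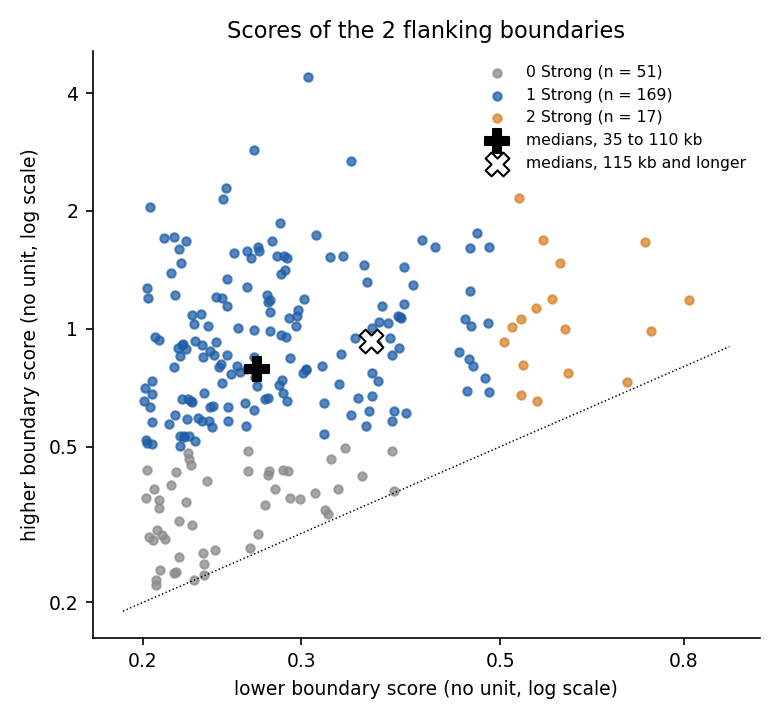
Each point is 1 of the 237 intervals of at most 110 kb, with the lower boundary score of its flanks on the horizontal axis and the higher one on the vertical axis, both on log scales, coloured by the number of Strong flanks; the dotted line marks equal scores. Most points lie far above that line near its left end, and the median point (plus, 0.268 and 0.789) lies to the left of and below that of longer intervals (cross, 0.359 and 0.930).

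Gene density varied little with the number of Strong flanks. Small intervals with 0, 1 and 2 Strong flanks held 22.5, 27.5 and 24.6 protein-coding TSSs per Mb, over 51, 169 and 17 intervals. In longer intervals the corresponding densities rose from 4.34 to 8.37 and 11.9 per Mb. The difference between these patterns was not tested. The stronger flank had a TSS within 10 kb on its inner side in 30.4% of small intervals and the weaker flank in 24.5%, against 14.5% and 13.8% in longer ones.

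Matches to the core consensus of CTCF were frequent at the flanks, but most lay in repeats. A match lay within 10 kb of both flanking midpoints in 146 small intervals (61.6%, exact 95% binomial interval 55.1 to 67.8%), against 48.5% of 115 to 150 kb intervals and 38.8% of longer ones. Matches that point inward from both flanks, as in a convergent loop, were present in 65 (27.4%, 21.8 to 33.6%), against 23.7% of 115 to 150 kb intervals (20.8 to 26.7%) and 18.7% of all longer ones. Small intervals also had more matches per flank, 1.79 against 1.45 in 115 to 150 kb and 1.18 in all longer intervals. More matches give more chances of an inward pair, and whether orientation itself differed was not tested. With 2 Strong flanks the inward share was 11.8% in small intervals, against 27% of longer ones. It rests on 2 of 17 small intervals, and the difference was not tested. In the same group a match lay at both flanks in 70.6% of small and 53.9% of longer intervals. With 0 or 1 Strong flank the inward share was higher in small ones. Both flanks shared the core matches, with a match at 74.7% of the stronger and 77.2% of the weaker ones in small intervals. Genome-wide, however, 72.1% of the 84922 autosomal core matches lay in masked repeats. One 12-base string, CCAGAAGAGGGC, made up 48355 of them (56.9%), and 99.6% of its copies were masked. This is the string in the first 2 lines of flank sequence printed above. Mouse B2 short interspersed elements are known to carry CTCF sites, but the repeat families were not identified here.

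Outside masked repeats the shares were smaller, and so was their difference in percentage points. For matches at both flanks, the share of all longer intervals lay just below the binomial interval of the small ones. That of 115 to 150 kb intervals lay inside it, as did both shares for inward matches. Core matches outside masked repeats lay at both flanks in 36 small intervals (15.2%, 10.9 to 20.4%), in 13.9% of those of 115 to 150 kb (11.6 to 16.4%) and in 10.5% of all longer ones (9.76 to 11.2%). They pointed inward at both flanks in 7 (2.95%, 1.20 to 5.99%), against 3.94% of 115 to 150 kb intervals and 3.36% of all longer ones (2.94 to 3.81%). In masked repeats alone, the shares with a match at both flanks were 43.5% in small, 32.7% in 115 to 150 kb and 23.8% in all longer intervals, and inward 18.1%, 15.3% and 10.4%. A stricter consensus, with 2 more bases and fewer letters allowed, of whose 6323 autosomal matches 11.6% were masked, lay at both flanks in 16 small intervals (6.75%, 3.91 to 10.7%), 3.94% of 115 to 150 kb intervals (2.73 to 5.49%) and 2.66% of all longer ones (2.30 to 3.07%). It pointed inward at both in 4 (1.69%), 0.956% and 0.593%. For this consensus too, the share of all longer intervals with a match at both flanks lay below the binomial interval of the small ones. That of 115 to 150 kb intervals lay just inside it. These are letters in the reference genome of another strain and not measured binding.

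The shortest intervals show how varied the set is. The shortest of all, 35 kb at chr7:106475001-106515000 (coordinates here run from the outer edge of the left flanking bin to that of the right one), lay between Weak boundaries with scores of 0.238 and 0.217. It held no protein-coding TSS, only that of the pseudogene Gm8995, and masked repeats took 50.7% of its bases. The next, 45 kb at chr6:86360001-86410000, held 4 genes between a Strong boundary (1.67) and a Weak one (0.223). They were Fam136a, which encodes a mitochondrial protein, Snrpg, for a core protein of spliceosomal snRNPs, Pcyox1, for an enzyme that breaks down prenylcysteine, and Tia1, for an RNA-binding protein of stress granules. Their TSSs lay 3.15, 8.80, 10.3 and 3.28 kb from the nearer flank.

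The next 5 in length, and the first 3 by chromosome and position of the 7 tied at 65 kb, held from 1 to 3 protein-coding genes or none. The interval of 55 kb at chr16:4620001-4680000 held Pam16 (mitochondrial protein import), Vasn (a membrane protein that binds TGF-beta) and Dnaja3 (a mitochondrial chaperone) between Weak boundaries of 0.289 and 0.205. An interval of 60 kb at chr4:31960001-32025000 held the TSS of Map3k7, which encodes the kinase TAK1, 1.60 kb from a Strong boundary of 1.34, and its other flank scored 0.248. Another of 60 kb, at chr4:150910001-150975000, held Park7, for the oxidative stress protein DJ-1, and Tnfrsf9, for 4-1BB, a costimulatory receptor of T cells. That pair lay 1.94 and 2.06 kb from a Strong boundary of 0.891, and the other flank scored 0.219. Tarsl2, for a threonyl-tRNA synthetase, and Tm2d3 shared 60 kb at chr7:65640001-65705000, with scores of 1.32 and 0.355. Tada1, for a subunit of the SAGA coactivator, and Pogk shared 65 kb on chromosome 1 (0.277 and 0.986), and Tmem243 was alone in 65 kb on chromosome 5 (1.27 and 0.202). The other 4 tied at 65 kb held 2, 2, 6 and 9 protein-coding TSSs, so the gene numbers of these 10 depend on how the tie was broken.

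Histone genes filled 1 of the intervals with most protein-coding TSSs. The 70 kb at chr13:23695001-23770000 held 11 protein-coding TSSs, 10 of them replication-dependent histone genes of the Hist1 cluster, from Hist1h4c at 0.954 kb from the left flank to Hist1h1c, Hist1h3c, Hist1h2bb and Hist1h2ab at 28.7, 21.9, 20.8 and 16.4 kb from the right one. The other was Hfe, a regulator of iron uptake. The left boundary scored 0.203, close to the lowest in the list, and the right one 2.05. This single interval accounted for all 10 of the 67 histone genes found in small intervals, which therefore are not 10 separate observations.

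Among the other crowded intervals, 3 held genes of many kinds. At chr17:35815001-35925000, 105 kb held 11 genes, beginning with Ier3 (an immediate early gene), Flot1 (a lipid raft protein), Tubb5 (a tubulin), Mdc1 (a DNA damage mediator), Nrm and Ppp1r18, with flanks of 1.14 and 0.369. The next interval to the right was small too, 70 kb. At chr7:140805001-140915000, 105 kb held 10 genes from Zfp941, Urah, Scgb1c1, Odf3, Gm45785 and Ric8a onwards, with flanks of 1.68 and 0.279. At chr15:76655001-76725000, 65 kb held 9, among them Kifc2 (a kinesin of neurons), Cyhr1, Foxh1 (a transcription factor of Nodal signalling), Ppp1r16a, Gpt (alanine aminotransferase) and Mfsd3, with flanks of 0.318 and 0.645. An interval of 80 kb on chromosome 17 around Tnf also held 9.

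Small intervals with a well-scored boundary on each side were few and had moderate gene numbers. The highest lower score, 0.811 beside 1.18, belonged to 105 kb at chr8:120070001-120180000 with Zdhhc7 (a palmitoyltransferase), 6430548M08Rik and Fam92b. In longer intervals the lower score reached 1.93. Cd82, for a tetraspanin, was alone in 105 kb on chromosome 2 (0.989 and 0.736). Cd300e and Cd300lf, receptors of myeloid cells, shared 105 kb on chromosome 11 with Rab37, a GTPase of secretory vesicles (1.67 and 0.724). Eef2k, for the kinase of elongation factor eEF2, and Polr3e, for a subunit of RNA polymerase III, shared 100 kb on chromosome 7 (0.773 and 0.595). Slc7a5, for an amino acid transporter, Car5a, for a mitochondrial carbonic anhydrase, and Banp shared 105 kb on chromosome 8 (0.582 and 1.47), and the helicase gene Ddx11 lay in 110 kb on chromosome 17 (1.19 and 0.571). One of the 10, on chromosome 9, held no protein-coding TSS (0.656 and 0.550).

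A few genes of olfactory neurons lay in the set. Of 21 autosomal genes on a list of mature olfactory neuron genes, 2 had their TSS in a small interval (9.52%, exact 95% binomial interval 1.17 to 30.4%, which includes the 2.87% of all protein-coding genes). Cngb1, which encodes a subunit of the cyclic nucleotide-gated channel that opens in the odour response, lay in 110 kb at chr8:95225001-95340000, 30.9 kb from the nearer flank. It shared this interval with Tepp, Zfp319 and Usb1 (a nuclease that trims U6 snRNA), and both flanks were Strong, at 0.692 and 0.732. Rtp2, which encodes a protein that helps receptors to reach the cell surface, was the single protein-coding gene in 90 kb at chr16:23890001-23985000. Its TSS lay 39.9 kb from the left flank, which scored 0.266, and the right flank, within Bcl6, scored 2.86 and had the unmasked, stricter match printed above, pointing out of the interval. Rtp2 was also the 1 member found of 26 autosomal regulators of OR choice (3.85%, 0.0973 to 19.6%). From 19 genes of immature neurons, the tubulin-binding protein gene Stmn2 was found, alone in 100 kb at chr3:8495001-8600000, with flanks of 0.601 and 0.341; that is 5.26% of the list (0.133 to 26%), and both intervals again include 2.87%.

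Of 26 autosomal genes for chromosome architecture, 2 were in small intervals (7.69%, 0.946 to 25.1%, against 2.87% of all protein-coding genes). Nipbl, which encodes the cohesin loader, had its TSS 8.04 kb from a Strong boundary of 0.838 in an interval of 90 kb on chromosome 15 whose other flank scored 0.462. Ctcfl, a relative of CTCF known from the testis, lay in 110 kb on chromosome 2 (0.691 and 0.486).

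**Figure D5:**
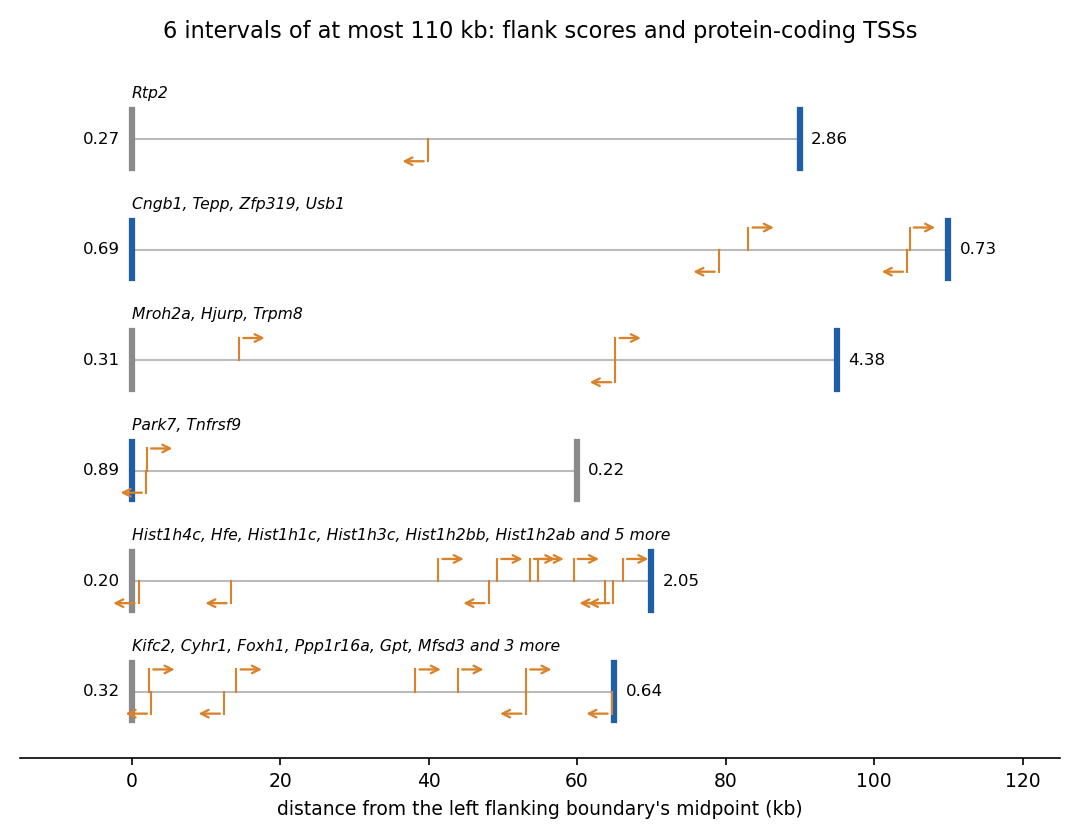
Each line is 1 of 6 small intervals, drawn from its left flanking boundary; thick bars are the flanking boundaries with their scores (blue Strong, grey Weak), and orange arrows mark protein-coding TSSs and point in the direction of transcription (above the line plus strand, below it minus strand). Rtp2 is alone in 90 kb, Park7 and Tnfrsf9 start within 2.06 kb of the Strong boundary of their 60 kb interval, and the Kifc2 interval holds 9 TSSs in 65 kb.

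Receptor gene families lay mostly elsewhere. Of 1128 autosomal protein-coding OR genes, 14 (1.24%, 0.680 to 2.07%) had their TSS in a small interval, below the 2.87% of all protein-coding genes, and they shared 5 intervals. Olfr582, Olfr583 and Olfr584 filled 90 kb at chr7:103000001-103095000 between Weak boundaries of 0.291 and 0.212. Olfr372 and its neighbours filled another of 90 kb on chromosome 8 (0.216 and 0.799). Olfr462, Olfr463 and Olfr464 shared 110 kb on chromosome 11 with Mks1, a gene of the ciliary transition zone, and Epx, for eosinophil peroxidase, between Strong boundaries of 0.558 and 1.68. The median OR gene lay in an interval of 440 kb, against 270 kb for all protein-coding genes. Vomeronasal receptor genes, which detect pheromones, had 2 of 329 in small intervals (0.608%), Vmn2r8 and Vmn2r9 in the same 110 kb on chromosome 5, and a median interval of 685 kb. None of 39 Hox genes (0%, up to 9.03%) and none of 67 protocadherin genes (up to 5.36%) had its TSS in a small interval.

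Some lists of housekeeping genes had shares above that of all genes, on small numbers. Of these the binomial interval of the splicing factor genes alone lay above 2.87%. The lists were chosen with earlier results of these data known, so this is no test. There were 4 of 39 proteasome subunit genes (10.3%, 2.87 to 24.2%), namely Psmb3, Psma5, Psmd13 and Psma4, and Psma5 had its TSS 0.574 kb from a Strong boundary of 0.563. There were 5 of 54 splicing factor genes (9.26%, 3.08 to 20.3%), with Snrpg in 45 kb, Snrpd2 in 100 kb and Sf3b3 in 105 kb. At limits of 80, 100 and 130 kb the splicing factor share was 1.85%, 3.70% and 11.1%. All protein-coding genes had 0.524%, 1.57% and 6.53% there. With Strong boundaries alone the shares were 0% and 0.207%. Cytosolic ribosomal protein genes had 6 of 79 (7.59%, 2.84 to 15.8%) in 5 intervals, with Rps14 in the shortest of them, 80 kb. RNA polymerase II and Mediator genes had 3 of 41 (7.32%), Med23 in 70 kb, Med4 in 95 kb and Polr2c in 110 kb. Med23 and Med4 began 2.49 and 2.53 kb from a flank. In contrast, mitochondrial ribosomal protein genes had 2 of 78 (2.56%), Mrpl55 and Mrps18b, and respiratory complex I genes 1 of 35, Ndufs7 (2.86%).

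The remaining lists stayed near the share of all genes or rested on single genes. Zfp zinc finger genes had 10 of 385 (2.60%) in 7 intervals, with Zfp523 in the shortest of them, 95 kb. Ion channel genes had 4 of 131 (3.05%): Kcnh4 in 65 kb, Kcnj13 and Kcna5 in 95 kb each, and Kcnt2 in 110 kb, all for potassium channels. Of 113 keratin genes, the 2 found (1.77%) were Krt8 and Krt18, the partner keratins of simple epithelia, together in 95 kb on chromosome 15 (1.25 and 0.463). Ier3 was the 1 of 23 immediate early genes. The binomial intervals treat genes as independent, which neighbours in a cluster are not, and nothing was tested over these 19 lists.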

How the data were processed

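The deposited list gives boundary bins of 5 kb with a class and a score; per the labels' design text the authors called boundaries on 1 contact matrix made from both replicates on GRCm38, the build also named in the submitters' processing notes. The score is the authors' and has no stated unit; caller, window, number of contacts and so depth were not stated in these sources. Intervals ran between midpoints of neighbouring bins, and the 7576 boundaries include the X chromosome, which the selection left out. Genes and TSSs (annotated 5′ ends) came from GENCODE M21, and sequence from the GRCm38 reference as held by RefSeq. The mice were of another strain than the reference, so differences between strains are not seen. Densities are per Mb of bases other than N. CTCF matches were exact matches to the core consensus, on both strands, within 10 kb of a midpoint. A match pointed inward when on the plus strand at the left flank or the minus strand at the right. It counted as masked when at least 6 of its 12 bases were lower case in the reference. Unique reads were 100 bases long, taken every 1000 bases and aligned with minimap2 2.31 at a mapping quality of at least 30. Counts used Python 3.11.15, and the functions were tested on simulated data. Binomial intervals are exact (Clopper-Pearson, 95%) and cover counting error only.

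The intervals, gene lists and alternatives were chosen with earlier results of these data known. Named genes were those in the 10 shortest intervals, in the 10 with the highest lower score and, up to 6 each, in the 5 with most TSSs; members of the olfactory neuron, regulator and architecture lists; up to 4 of each other list, in the shortest intervals; and genes covering a whole interval. Ties, at 65 kb in length and at 9 TSSs, were broken by chromosome and position. Some genes and regions under this rule are not reported here. Others, such as Hjurp, Trpm8, Npc2, Isca2, Lrrc14 and Recql4, were chosen after their values were seen.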

Additional observations from a re-analysis of the deposited data

How the results depend on the processing

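The number of small intervals depended on every choice of length limit and boundary set tried: 40 at 80 kb, 129 at 100 kb, 585 at 130 kb, 17 with Strong boundaries alone and 82 with scores of at least 0.3. None was lost near assembly gaps. TSS density was 38.9, 29.4 and 20.7 per Mb at limits of 80, 100 and 130 kb, 43.8 with genes of any type and 23.6 without TSSs near the flanks. Its ratio to longer intervals was 4.51, 3.43 and 2.48 at those limits, 2.84 with Strong boundaries alone and 2.08 with genes of any type, and above 1 in each alternative run. Leaving out each autosome in turn gave ratios of 3.02 to 3.16 and median flank scores of 0.542 to 0.555. The share without a TSS was 18.6% at 130 kb, 7.32% with scores of at least 0.3 and 5.91% with genes of any type. The median flank score was 0.268 for the lower flank, 0.789 for the higher and 0.591 at 80 kb. Core matches lay at both flanks in 35.4% within 5 kb and 73.4% within 15 kb (longer intervals 19% and 51.9%), 6.75% with the stricter consensus and 15.2% outside masked repeats, an alternative chosen after seeing the data. The inward shares were 12.2%, 42.2%, 1.69% and 2.95% (longer intervals 6.96% within 5 kb and 28.5% within 15 kb). Of 76 alternatives for 19 gene lists, 41 stayed within the binomial interval of the list's share at 110 kb. The share of all protein-coding genes changed too. It was 0.524%, 1.57% and 6.53% at limits of 80, 100 and 130 kb, and 0.207% with Strong boundaries alone. The count of 41 therefore does not say whether a list kept its place relative to all genes. No paired analysis was possible because the 2 replicates form 1 group and were combined before boundaries were called. The bin size of 5 kb limits positions, and without the contact counts it cannot be said how far Weak flanks rest on counting error.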

Other observations

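Some small intervals stood next to each other or held gene groups that no list covered, and these were picked after their values were seen. On chromosome 8, 3 small intervals in a row (105, 110 and 110 kb, chr8:94595001-94925000) held 12 protein-coding TSSs, among them the chemokine genes Ccl22, Cx3cl1 and Ccl17 and the polymerase subunit gene Polr2c. On chromosome 16 another 3 in a row (110, 85 and 110 kb, chr16:32500001-32810000) held Tfrc, for the transferrin receptor, the kinase gene Tnk2 and the mucin genes Muc4 and Muc20. The cytokine genes Tnf, Lta and Ltb lay together in 80 kb at chr17:35165001-35250000, between boundaries with scores of 0.241 and 1.21 and 26.9 kb or more from the nearer one. The joining segments Igkj1 to Igkj5 and the constant segment Igkc of the immunoglobulin kappa light chain, which are not annotated as protein-coding and are rearranged in B cells, lay in 80 kb at chr6:70695001-70780000.

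The interval with the highest-scoring flank in the set, 95 kb at chr1:88210001-88310000, held Mroh2a, Hjurp (the chaperone of the centromeric histone CENP-A) and Trpm8 (a cold-sensing ion channel) between scores of 0.305 and 4.38. The TSSs of Hjurp and Trpm8 lay 29.9 and 29.8 kb from that strongest flank, which falls inside Trpm8. Outside the autosomes, 10 of 406 intervals between neighbouring boundaries on the X chromosome were 110 kb or shorter.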
